A study of Mus musculus with 10 samples.

Results

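The 10 genes described here encode the main carriers that bring amino acids and small peptides from the gut lumen into the absorptive cells of the small intestine, the enterocytes, and onward to the blood. They were taken by symbol from the platform annotation, in which 14 of 45101 probe sets name a member. They are 10 of the 18193 genes with a probe set naming a single symbol. Of the members, 7 act on the apical side, the brush border that faces the lumen (Slc6a19, Slc6a20a, Slc7a9, Slc3a1, Slc1a1, Slc15a1 and Slc36a1), and 3 on the basolateral side, which faces the blood (Slc7a8, Slc7a7 and Slc3a2). The expression arrays came from B6xBALB F2 mice, offspring of the F1 generation of a cross of the C57BL/6 and BALB/c strains. Knockouts for Cftr, the chloride channel lost in cystic fibrosis, gave 8 arrays, and controls gave 2. The titles put a code H on 5 knockouts, a code L on 3 and a code D on both controls. None of these codes is spelled out; the series title speaks of variable weight, and code D cannot be told apart from the control genotype. The knockouts are written CF-/- without the allele, and no treatment, diet or age is named. The design text counts more animals than the arrays analysed here. Each title also holds a letter, M (6 arrays) or F (4 arrays), and a number in a lower range (3 knockouts and both controls) or an upper range (5 knockouts).

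Protein in a meal is cut in the lumen and by peptidases of the brush border into peptides and single amino acids. Apical carriers take these up, most of them driven by sodium or protons, and basolateral carriers exchange or release amino acids toward the blood. Several of the carriers work only as a pair, in which a heavy chain (Slc3a1 on the apical side, Slc3a2 on the basolateral side) brings a transporting light chain to the membrane. Human disorders of single carriers are known: loss of SLC6A19 causes Hartnup disorder, loss of SLC3A1 or SLC7A9 cystinuria, and loss of SLC7A7 lysinuric protein intolerance.

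The starts of 4 apical members are shown because these genes belong to 1 function yet differed in how far apart the knockout and control values lay. Each window runs from 250 bases before the start of the RefSeq transcript to 50 bases after it, on the gene's own strand, in the assembly GRCm38.p6. Capitals mark any match, on either strand, to the letters of 5 motifs. The letters GTTAAT are part of the site bound by HNF1. The core of the HNF4 site was searched as CAAAGT. For the CDX factors the letters were CATAAA. The GATA factors were searched as AGATAA, and the amino acid response element as TGATGNAA. Factors of the HNF1, HNF4, CDX and GATA families are regulators of intestinal epithelial genes. The windows are Slc6a20a at chr9:123678783-123679082 on the minus strand, Slc6a19 at chr13:73692587-73692886 on the minus strand, Slc3a1 at chr17:85028097-85028396 on the plus strand and Slc15a1 at chr14:121505205-121505504 on the minus strand.
Slc6a20a: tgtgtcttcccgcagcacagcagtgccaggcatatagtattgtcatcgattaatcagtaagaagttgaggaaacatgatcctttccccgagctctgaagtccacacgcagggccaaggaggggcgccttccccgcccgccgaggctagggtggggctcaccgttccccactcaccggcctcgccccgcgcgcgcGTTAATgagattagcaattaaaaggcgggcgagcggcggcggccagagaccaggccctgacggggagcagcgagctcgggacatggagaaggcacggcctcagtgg
Slc6a19: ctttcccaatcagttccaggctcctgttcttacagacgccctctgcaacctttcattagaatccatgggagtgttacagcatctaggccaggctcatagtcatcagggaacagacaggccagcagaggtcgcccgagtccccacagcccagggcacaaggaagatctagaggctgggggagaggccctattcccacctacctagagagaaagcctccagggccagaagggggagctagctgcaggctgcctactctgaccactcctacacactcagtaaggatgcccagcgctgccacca
Slc3a1: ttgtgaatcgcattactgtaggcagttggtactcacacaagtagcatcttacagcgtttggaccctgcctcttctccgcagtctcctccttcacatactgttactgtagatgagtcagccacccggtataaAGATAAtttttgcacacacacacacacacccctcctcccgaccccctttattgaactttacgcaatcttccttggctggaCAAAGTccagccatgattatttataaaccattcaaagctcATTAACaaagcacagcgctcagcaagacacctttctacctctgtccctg
Slc15a1: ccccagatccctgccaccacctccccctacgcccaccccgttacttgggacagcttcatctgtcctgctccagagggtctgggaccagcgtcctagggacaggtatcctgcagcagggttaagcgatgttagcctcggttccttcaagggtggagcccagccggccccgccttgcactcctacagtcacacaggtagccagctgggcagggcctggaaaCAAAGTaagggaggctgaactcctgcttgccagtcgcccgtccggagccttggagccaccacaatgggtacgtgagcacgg

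In the Slc6a20a window the HNF1 letters began at position -56 from the start, and the Slc6a19 window held none of the 5 sets of letters. The Slc3a1 window held a GATA match at -119, an HNF4 core at -39 and the HNF1 letters at 2, and the Slc15a1 window an HNF4 core at -31. RefSeq lists 15 such windows for the 10 members, more than 1 for Slc7a9 and Slc7a7. At least 1 window held the HNF1 letters in 4 members, against 7.10% of 32851 windows of all genes, the HNF4 letters in 3 (14.4%), the GATA letters in 3 (11.2%), the amino acid response letters in 1, Slc7a7 (3.97%), and the CDX letters in 0 (11.9%). The members' counts are per gene and the shares per window, so that a gene with several windows had more chances. These matches describe letters and nothing more.

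The sample labels point to the lung and the title of the series to the intestine, so the tissue was read from marker transcripts. Fabp2, the intestinal fatty acid binding protein, averaged 4091 ± 621 intensity units in the knockouts (SD, n = 8) and 7030 ± 446 in the controls (n = 2), and the microvillus protein Vil1 2675 ± 164 and 3644 ± 109. Lung transcripts were present too: Sftpc, of alveolar type 2 cells, averaged 2178 ± 1113 and 1149 ± 58.3, and Scgb1a1, of airway club cells, 3467 ± 1384 and 2676 ± 11.8. The enterocyte carriers are therefore described in RNA that held transcripts of both organs. Cftr itself averaged 28.1 ± 6.63 in the knockouts and 134 ± 4.47 in the controls, which matched the labels. The array medians lay between 18.4 and 18.9 units, levels close to them lie near background, and the number of arrays, above all the 2 controls, limits the precision. In such bulk RNA, a smaller share of enterocytes in the RNA and less transcript per enterocyte cannot be told apart. Carrier transcript from other cells, of gut or lung, is counted in as well.

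The knockouts were set against the controls to ask how carrier transcripts differ where Cftr is lost. The differences below were fitted with limma on log2(intensity + 16) with the title's number range and letter in the model, and the p-values were adjusted by the Benjamini-Hochberg method over all 13644 genes tested, at a threshold of 0.05. Of the 10 members, 4 fell (the neutral amino acid carriers Slc6a19 and Slc7a8, the proline carrier Slc6a20a and the cationic amino acid exchanger Slc7a7), 0 rose, and 9 had a negative difference. Over all genes tested 4.31% passed the threshold and 2.79% passed it with lower levels in the knockouts. The members' median log2 difference was -0.64, against -0.0047 for all genes tested. All 10 members passed the filter on dim genes, also when it was applied to the knockouts alone. For 7 members every knockout lay below both controls, which held for 11.7% of all genes tested. With the number range in the fit, knockouts and controls were set against each other within the lower range (3 knockouts, 2 controls). The 5 knockouts of the upper range entered only through the effect of the letter and the estimated spread. The 4 members past the threshold became 0 without control replicate 1 and 1 without control replicate 2. Over all genes the 588 calls became 0 and 57.

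**Figure D1:**
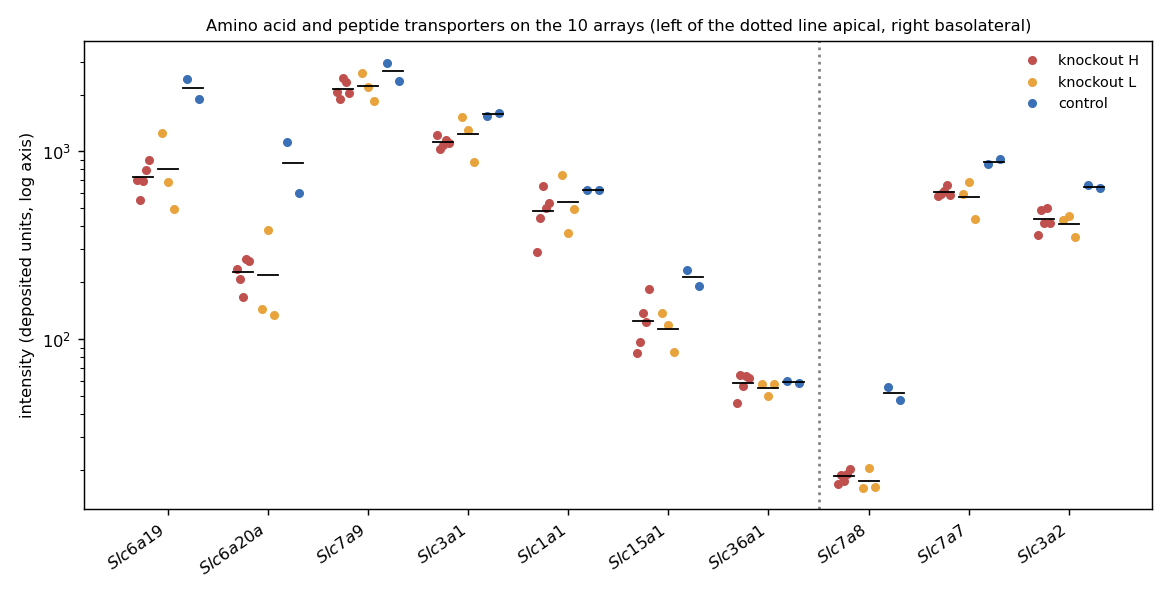
Deposited intensity (log axis) of each of the 10 carriers on the 10 arrays, 1 point per array, coloured by knockout H, knockout L and control; short bars are group means and the dotted line parts apical from basolateral carriers. The control points of Slc6a19, Slc6a20a and Slc7a8 stand well above all knockout points, whereas those of Slc1a1 and Slc36a1 lie among them; heights of different carriers come from different probes and are not to be compared.

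Slc6a19 encodes B0AT1, the sodium-driven carrier that takes up most neutral amino acids at the brush border. Its intensity was 2432 and 1891 in the controls. In the knockouts H it was 701, 550, 697, 795 and 902, and in the knockouts L 1245, 687 and 492. The groups did not overlap: the highest knockout, L replicate 1, stayed below the lower control, and the other 7 knockouts lay no higher than 902. Mean intensities were 759 ± 235 in the knockouts (SD, n = 8) and 2161 ± 382 in the controls (n = 2), which put the knockouts at 35.1% of control. The fitted log2 difference was -1.56 ± 0.34 (SE), with a limma adjusted p of 0.0361. A second probe set of the gene, with means of 440 ± 147 and 1058 ± 52.0, gave -1.44 and an adjusted p of 0.0377 in a fit over 23925 probe sets. Within the lower number range alone the log2 difference was -1.56 (limma adjusted p = 0.0167). Of 24 alternative settings 10 ended the call, including a covariate for the pan-epithelial markers (-1.53, adjusted p = 0.0578) and the fit without control replicate 1 (-1.19, adjusted p = 0.335).

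Slc6a20a encodes the apical carrier of proline and other imino acids, called SIT1. Its controls read 1121 and 599, the widest relative gap between controls in the set. The knockouts H read 236, 209, 167, 266 and 261, and the knockouts L 144, 381 and 134. All 8 knockouts were below both controls, with L replicate 2 the highest of them. The knockouts averaged 225 ± 81.0 against 860 ± 369 in the controls, or 26.2% of control. Its log2 difference of -1.96 ± 0.38 (limma adjusted p = 0.0265) was the largest among the members. It was -1.90 within the lower number range (adjusted p = 0.0227), -1.66 without control replicate 1 (adjusted p = 0.269) and -2.21 without control replicate 2 (adjusted p = 0.118), and without knockout H replicate 4 the adjusted p was 0.0711.

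Slc7a9 and Slc3a1 form the exchanger b0,+, which takes up cystine and the basic amino acids at the brush border. For the heavy chain Slc3a1 the controls read 1543 and 1596, the knockouts H 1212, 1032, 1074, 1142 and 1103, and the knockouts L 1516, 1302 and 878. All knockouts were below both controls, with L replicate 1 close to the lower one. The means were 1157 ± 191 and 1569 ± 37.5, a level of 73.8% of control, and the log2 difference of -0.59 ± 0.17 did not pass the threshold (limma adjusted p = 0.0925). For the light chain Slc7a9 the knockouts ranged from 1839 to 2609 with a median of 2128, and the controls read 2960 and 2369. Of the knockouts, 6 were below both controls and 2, L replicate 1 and H replicate 3, lay between them. Its mean was 81.7% of control and its log2 difference -0.37 ± 0.16 (adjusted p = 0.245).

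Slc15a1 encodes PepT1, the proton-driven carrier of di- and tripeptides. Its controls read 234 and 192, the knockouts H 84.6, 96.4, 137, 123 and 184, and the knockouts L 138, 118 and 84.9. Every knockout was below both controls, with H replicate 5 close to the lower one. The means were 121 ± 33.4 and 213 ± 29.9, or 56.7% of control, while the log2 difference of -0.67 ± 0.28 had a limma adjusted p of 0.226, so that the difference was not separated from the spread between arrays after adjustment.

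The remaining apical carriers had overlapping groups. Slc1a1 encodes EAAT3, the sodium-driven carrier of glutamate and aspartate. Its knockouts ran from 291 to 746 with a median of 494, around controls of 624 and 619. The knockouts thus lay on both sides of the controls, 6 below both and 2 above both, with a log2 difference of -0.25 ± 0.33 and a 95% interval from -1.0 to 0.49 (limma adjusted p = 0.743). Its other 2 probe sets gave differences of -0.02 and 0.05. Slc36a1 encodes PAT1, a proton-driven carrier of small neutral amino acids and proline. Its knockouts ran from 45.6 to 64.4 with a median of 57.7, and the controls read 60.0 and 58.1. The log2 difference was 0.05 ± 0.11, with an interval from -0.20 to 0.30, and its sign turned without covariates (-0.041).

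On the basolateral side, Slc7a8 encodes LAT2, a light chain that exchanges neutral amino acids. Its controls read 55.5 and 47.6. The knockouts H read 17.0, 18.8, 17.6, 19.1 and 20.2, and the knockouts L 16.1, 20.5 and 16.3. All knockouts lay at the level of the array medians, where signal is near background, and both controls stood clear of them. Control and knockout means were 51.6 ± 5.57 and 18.2 ± 1.71, and no ratio is given because the knockout level is not clear of background. The fitted log2 difference of -0.98 ± 0.09 (limma adjusted p = 0.00528) is adjusted for the covariates and has 16 units added to each value before the logarithm, which understates the difference of so dim a gene. The call held in 22 of the 23 alternative settings that tested the gene and was lost without control replicate 1 (-0.90, adjusted p = 0.0894).

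Slc7a7 encodes y+LAT1, the light chain that releases basic amino acids toward the blood in exchange for neutral ones. Its controls read 850 and 904, the knockouts H 575, 590, 617, 658 and 583, and the knockouts L 595, 688 and 434. The groups did not overlap, and L replicate 3 stood below the other knockouts. The means were 593 ± 75.2 and 877 ± 38.5, or 67.6% of control. Its log2 difference of -0.66 ± 0.16 had a limma adjusted p of 0.049996, just inside the threshold, and the call held in only 6 of 24 alternative settings. A second probe set, with means of 454 ± 62.7 and 577 ± 104, gave -0.39 with an adjusted p of 0.277, and 6 of its 8 knockouts were below both controls.

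Slc3a2 encodes 4F2hc (CD98), the heavy chain shared by Slc7a8, Slc7a7 and further light chains in many cell types. Its controls read 660 and 633, the knockouts H 357, 484, 417, 499 and 415, and the knockouts L 432, 452 and 349. Every knockout was below both controls. The means were 425 ± 53.7 and 647 ± 19.1, or 65.8% of control, and the log2 difference of -0.63 ± 0.15 missed the threshold narrowly (limma adjusted p = 0.0566); 8 of 24 alternative settings put it past. Slc7a7 and Slc3a2 thus had similar differences and lie on either side of the line by a small margin.

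**Figure D2:**
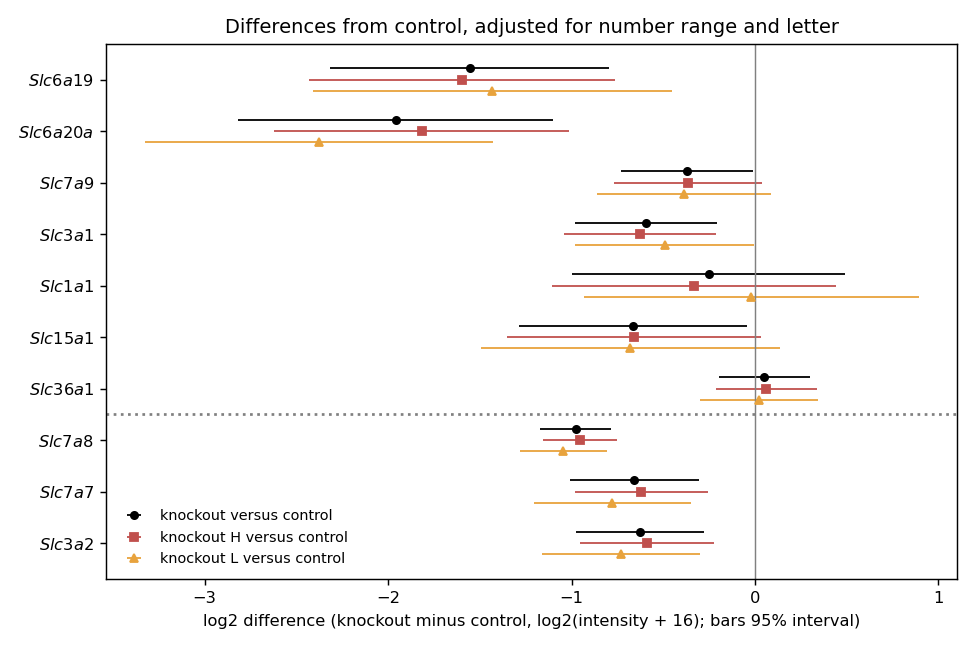
Log2 differences from control on log2(intensity + 16) for each carrier (points) with 95% intervals (lines), for all knockouts, knockouts H and knockouts L against the same 2 controls, adjusted for number range and letter. The intervals of Slc6a19, Slc6a20a, Slc3a1, Slc7a8, Slc7a7 and Slc3a2 lie wholly below 0 in all comparisons, while those of Slc1a1 and Slc36a1 cross 0.

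Apical and basolateral carriers were then set side by side. Of the 7 apical members 2 passed the threshold and 6 had a negative difference, with a median log2 difference of -0.59. Of the 3 basolateral members 2 passed and 3 had a negative difference, with a median of -0.66. The apical members were the more varied, from -1.96 to 0.05, against -0.98 to -0.63 on the basolateral side. For each array, the deviation of each carrier from its mean over the 10 arrays was averaged within each side. The apical mean deviation was 0.74 and 0.48 in the controls and lay between -0.46 and 0.10 in the knockouts. The basolateral one was 0.59 and 0.55 in the controls and between -0.40 and 0.00 in the knockouts. From control to knockout the apical mean differed by -0.76 and the basolateral mean by -0.71, so that both sides were lower by a similar amount. These differences of means were taken without covariates, unlike the medians and ranges above, which came from the adjusted fit. The difference between the sides was -0.04, less than its SD of 0.15 over the knockouts. Its sign depended on the scaling, with 0.0943 at a pseudocount of 1 and -0.164 at 64, and on the controls, with 0.0639 without control replicate 1 and -0.152 without control replicate 2. Without Slc6a19 and Slc6a20a the apical difference was -0.38. These means over members chosen with results in view carry no test.

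**Figure D3:**
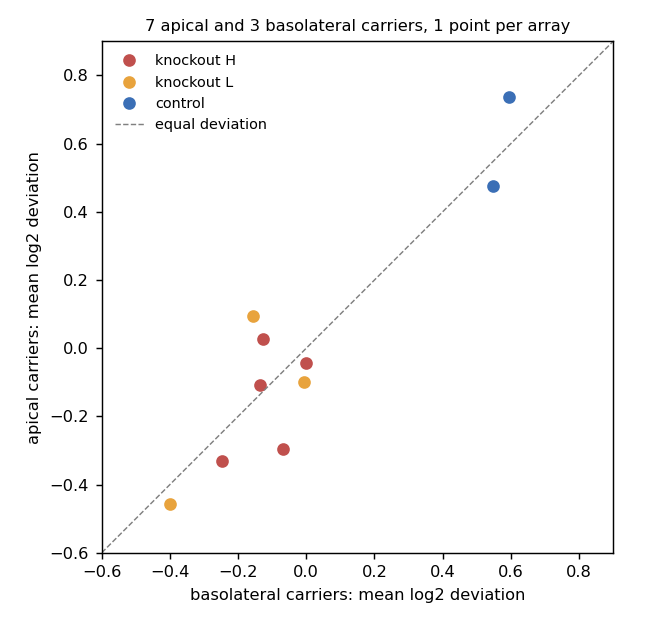
Mean log2 deviation of the 7 apical carriers (vertical axis) against that of the 3 basolateral carriers (horizontal axis), 1 point per array, each carrier centred on its mean over the 10 arrays; the dashed line marks equal deviation. Both controls sit at the upper right (0.59 and 0.55 on the horizontal axis), and L replicate 3 is the lowest knockout on both axes.

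The carriers that pair in the membrane were compared over the 8 knockouts alone, with exact two-sided permutation tests adjusted over the 3 pairs. Slc7a7 and its heavy chain Slc3a2 had a Pearson r of 0.74 (exact permutation p = 0.0217, adjusted 0.0548) and a Spearman rho of 0.79 (p = 0.0279, adjusted 0.0838, exact permutation). The r was 0.66 without L replicates 2 and 3, the arrays farthest from the median. Slc7a9 and Slc3a1 had an r of 0.73 (exact permutation p = 0.0365, adjusted 0.0548) and a rho of 0.69 (p = 0.0694, adjusted 0.104, exact permutation), but r was 0.18 without L replicates 1 and 3, so that the relation rests on those arrays. Slc7a8 and Slc3a2 had an r of 0.57 (exact permutation p = 0.147, adjusted 0.147) and a rho of 0.45 (p = 0.267, adjusted 0.267, exact permutation), with Slc7a8 near background throughout. No pair passed 0.05 after adjustment. The log2 ratio of light to heavy chain differed between knockouts and controls by 0.16 for Slc7a9 over Slc3a1 and by 0.03 for Slc7a7 over Slc3a2, about the spread between arrays or less. It differed by -0.39 for Slc7a8, near background in the knockouts, over Slc3a2, where the knockouts did not reach the controls; centred on the 10 arrays, they lay between -0.27 and 0.11 against 0.36 and 0.25.

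Among the knockouts the carriers varied to different degrees. The coefficient of variation was 36.0% for Slc6a20a, 30.9% for Slc6a19, 29.1% for Slc1a1 and 27.6% for Slc15a1, and between 9.39% and 16.5% for the other 6. Of the 45 pairs of members, 35 had a positive Pearson r over the 8 knockouts, with a median of 0.37; Slc6a19 with Slc3a1 had 0.82, and Slc6a20a with Slc1a1 the lowest, -0.59. Slc6a20a with Slc7a8 had 0.87, but Slc7a8 was near background on all of these arrays. All points share the arrays and their RNA, and these values are a description. Averaged over the 10 standardized members, L replicate 3 was the lowest knockout (-1.14 SD units) and H replicate 4 the highest (0.54). The 5 other genes with the highest r to that average over the 8 knockouts were Tmem87b, Scoc and Kdm4a (0.94 each), Sox3 (0.92) and Hells (0.91), chosen from all genes tested for being highest.

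Knockouts H and L were each set against the same controls, and then against each other. Against control, Slc6a20a and Slc7a8 fell in the knockouts H, where 2.43% of all genes passed the threshold and 1.77% passed it downward. Their log2 differences were -1.82 ± 0.35 (limma adjusted p = 0.0432) and -0.96 ± 0.09 (adjusted p = 0.0130), while Slc6a19 gave -1.60 (adjusted p = 0.0644). In the knockouts L only Slc7a8 passed, at -1.05 ± 0.10 (limma adjusted p = 0.0257), against a background of 0.344% of genes and 0.293% downward; Slc6a20a gave -2.38 (adjusted p = 0.0638) and Slc6a19 -1.43 (adjusted p = 0.177). The apical and basolateral medians were -0.63 and -0.62 in H and -0.49 and -0.78 in L. These comparisons share both controls and are not independent of each other. Only H replicates 4 and 5 and L replicate 3 had numbers in the range of the controls. The other knockouts entered through an effect of the range, assumed equal in H and L.

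The direct comparison of knockouts H with knockouts L called none of the carriers. Limma called 0 of 13644 genes (0%) after adjustment, with 303 at an unadjusted p under 0.05, and 0 members were among those 303. Slc6a20a had the largest difference, 0.56 higher in H on the log2 scale with a 95% interval from -0.16 to 1.27. That value was 0.185 without covariates, 0.187 with the number range only, 0.162 without knockout L replicate 3 and 1.13 in the lower range alone, where L is 1 array. Its mean was 228 ± 40.7 in H (n = 5) and 220 ± 140 in L (n = 3), the L arrays holding both the highest and the lowest knockout. For Slc1a1 the difference was -0.31 with an interval from -1.0 to 0.37, for Slc6a19 -0.16 (-0.90 to 0.57) and for Slc15a1 0.02 (-0.59 to 0.63), wide enough to hold sizeable differences either way. The interval was narrowest for Slc7a8, from -0.09 to 0.27. The 3 basolateral members were all slightly higher in H, by 0.09, 0.16 and 0.14 for Slc7a8, Slc7a7 and Slc3a2, within their spread.

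Other genes of amino acid handling were read from lists. Of all 13644 genes tested, 381 (2.79%) fell and 207 rose. Every knockout lay below both controls for 11.7% of these genes and above both for 1370. Among 25 further amino acid carriers, 19 passed the filter on dim genes, of which 3 fell, 0 rose, and the median log2 difference was 0.11. The taurine carrier Slc6a6 fell by 0.46 on the log2 scale (from 557 ± 11.5 in controls to 419 ± 25.5, limma adjusted p = 0.0168). The neutral amino acid carrier Slc43a2, LAT4, which sits in the basolateral membrane, fell by 1.11 (427 ± 78.8 and 820 ± 1.01, adjusted p = 0.0175). Slc6a18, a neutral amino acid carrier best known from kidney, fell by 0.54 at dim levels (15.9 ± 1.28 and 30.1 ± 10.2, adjusted p = 0.0294). The aromatic amino acid carrier Slc16a10 differed by -1.41 and did not pass (69.3 ± 29.6 and 218 ± 48.9, adjusted p = 0.139). Slc6a14, a broad neutral and basic amino acid carrier, lay above both controls in all 8 knockouts (1249 ± 349 and 503 ± 255) and did not pass either (1.39, adjusted p = 0.0700).

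Partners of the carriers formed a further list. Of 7 genes tested that partner the carriers, anchor them or set their ion gradients, 4 fell and 0 rose, with a median of -0.74. Of all genes tested 2.79% fell. Pdzk1, a brush border scaffold protein, fell by 3.50 on the log2 scale (from 1121 ± 483 in controls to 98.4 ± 57.8, limma adjusted p = 0.0170), and Slc9a3r1, the scaffold NHERF1, fell by 0.74 (adjusted p = 0.0127). The aminopeptidase Anpep, which binds B0AT1 at the brush border, fell by 1.23 (2659 ± 441 and 6279 ± 223, adjusted p = 0.0178), and the dipeptidase Dpep1 by 1.02 (1160 ± 136 and 2359 ± 561, adjusted p = 0.0176). The sodium-proton exchanger Slc9a3, with a difference of 0.72, and the sodium pump subunit Atp1b1, with -0.14, did not pass (limma adjusted p = 0.483 and 0.599).

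The peptidases that supply the carriers were read next. All 10 tested brush border peptidases had a negative difference, with a median of -0.88. Of these, 6 fell (2.79% of all genes tested did) and 0 rose. For 8 every knockout lay below both controls, which held for 11.7% of all genes tested. Anpep and Dpep1 are on this list too. Beside these, Xpnpep2, an aminopeptidase for peptides with proline, fell by 1.81 (limma adjusted p = 0.0143), Naaladl1 by 0.90 (0.0243), Dpp4, which removes dipeptides ending in proline, by 0.87 (0.0277) and the glutamyl aminopeptidase Enpep by 0.68 (0.0350). On a list of 14 tested genes of the amino acid response, the program that cells run when amino acids are short, 1 fell and 0 rose, with a median of 0.34. Trib3 fell by 0.38 at dim levels (22.9 ± 2.07 in knockouts and 33.3 ± 1.33 in controls, limma adjusted p = 0.0350). Chac1, also dim, with 0.61 (42.4 ± 9.19 and 26.5 ± 1.35, adjusted p = 0.0589), and the asparagine synthetase Asns, with 0.98 (406 ± 104 and 212 ± 49.5, adjusted p = 0.0681), did not pass. This list also holds the member Slc3a2.

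Markers of several cell types moved along with the carriers. Of all 13644 genes tested, 381 fell and 207 rose. Every knockout lay below both controls for 11.7% of these genes and above both for 1370. The summed intensity of 11 measured enterocyte markers ran from 18433 to 26444 over the knockouts, and both controls lay higher, at 32293 and 33221. The sum was below both controls in all 8 knockouts, 3 markers fell (Vil1, Fabp2 and Anpep, the last also on the lists above), 0 rose, and the median log2 difference was -0.51. Of the 11 markers 9 had a negative difference. Apoa4 went the other way, above both controls in all 8 knockouts without passing (0.65, limma adjusted p = 0.475), and Fabp1 gave 0.22. The 7 markers of distal small intestine summed to 7635 to 8833 and 12521 to 15004, again with no overlap; 4 of them fell, with a median of -0.69. The 8 markers of all gut and lung epithelia summed to 25402 to 30104 and 28487 to 29159, with a median of 0.01. Within that list Elf3, an epithelial transcription factor, rose by 0.58 (limma adjusted p = 0.0141) with all 8 knockouts above both controls, and the tight junction gene Cldn7 lay below both controls in all 8 without passing (-0.19, adjusted p = 0.257). Those of proximal small intestine summed to 966 to 1676 and 1200 to 1302. The Paneth cell and crypt sums were above both controls in all 8 knockouts (24949 to 33667 against 18927 to 21130, and 3399 to 3971 against 1978 to 2076), with 1 of 5 Paneth and 2 of 8 crypt markers past the threshold upward. The median log2 difference was 0.74 for the Paneth list and 0.04 for the crypt list. Of the 5 Paneth markers 1 had a negative difference, Lyz1 (7822 ± 1291 in knockouts, 9351 ± 644 in controls), and of the 8 crypt markers 4. Pla2g2a, the Paneth marker past the threshold, had the widest gap in units on its list (8287 ± 1277 and 1996 ± 64.7). The higher Paneth and crypt sums were thus not shared by their whole lists. The carriers' differences thus came with lower enterocyte and distal sums and higher Paneth and crypt sums, and the part of these in the result was not tested. In a fit with the mean log2 level of the pan-epithelial markers as a covariate, 2 members passed. That fit cannot show the part, because the level of the pan-epithelial list overlapped between the groups.

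The summed lung, muscle and macrophage markers overlapped between the groups. The alveolar type 2 sum ran from 1662 to 6146 over the knockouts, with 7 knockouts above both controls at 1746 and 1910, and the club cell sum 2333 to 7242 and 3203 to 3236. Smooth muscle markers summed to 4906 to 9116 and 4680 to 9609, and macrophage markers, of which Marco was dim, to 804 to 1539 and 1080 to 1146. Of 7 tested macrophage markers, Mrc1 rose by 0.48 (71.4 ± 6.18 in knockouts, 46.96 ± 8.64 in controls, limma adjusted p = 0.0408). Adgre1, also above both controls in all 8 knockouts, did not pass (0.22, limma adjusted p = 0.362). Among all 13644 genes tested, 1370 lay above both controls in all 8 knockouts. With the 2 knockouts highest in lung transcripts left out, 2 of the 10 carriers passed the threshold in place of 4, and Slc6a19, at -1.73, was among those lost (adjusted p = 0.0546); over the 24 settings its difference stayed between -1.86 and -1.19. Exocrine pancreas and liver markers were near background, with Cpa1 and Alb under the filter on dim genes.

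**Figure D4:**
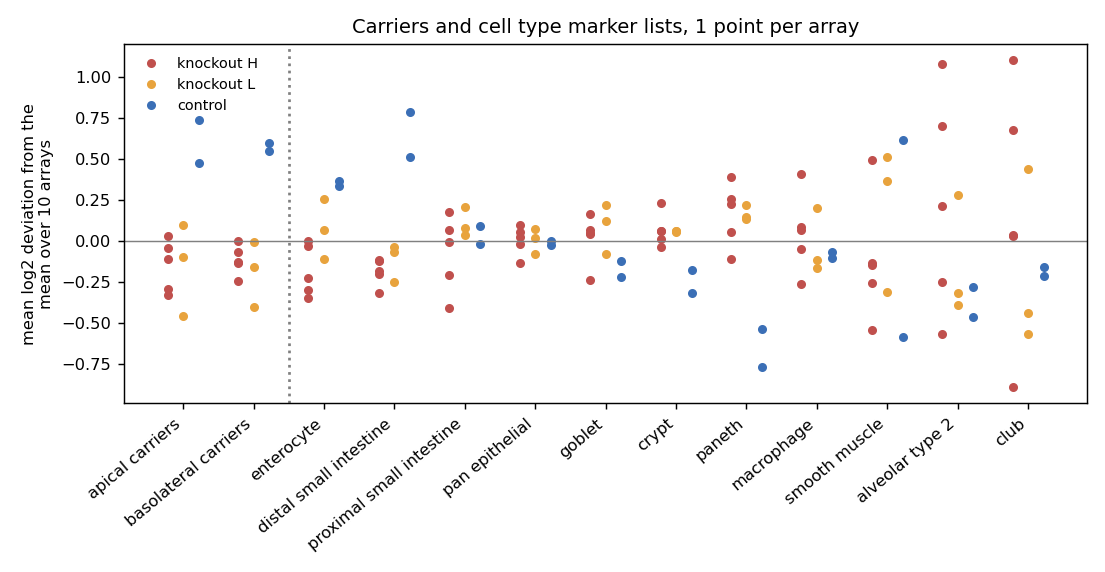
Mean log2 deviation from the mean over 10 arrays for the apical and basolateral carriers (left of the dotted line) and for cell type marker lists, 1 point per array, coloured by knockout H, knockout L and control. The controls are highest for both carrier groups and for the enterocyte and distal small intestine lists, lowest for the Paneth and crypt lists, and within the knockouts' range for the pan-epithelial, alveolar type 2 and club cell lists.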

How the data were processed

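The values are linear intensities as the authors deposited them, for every probe set on every array; how they were summarized or normalized is not given in the sources used here. The array medians differed little, and no further normalization was applied. There were 45101 probe sets, 64 of them array controls that were dropped. Of the probe sets, 34945 named a single gene, and for 34741 of those the symbol was looked up by gene identifier. The probe set with the highest mean stood for each of 18193 genes (9010 had more than 1), and 13644 with a mean above the 25th percentile (13.6 units) were tested. Where a gene had other probe sets, these were fitted apart. Values were log2(intensity + 16), so that differences of dim genes are understated. The models were fitted by lmFit and eBayes of limma 3.58.1 in R 4.3.3, with data read by the package data.table (version 1.17.8), number range and letter as covariates and Benjamini-Hochberg adjustment; knockouts H and L came from a fit of 3 groups. Plots used matplotlib 3.10.9. The code was tested on simulated data.

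The labels give each animal its own number but nothing else on separate origin, so p-values measure the spread between these samples, which may be technical. Xist read 713 to 1521 on the 4 arrays with the letter F and 5.55 to 19.2 on the 6 with M. The Y-linked Eif2s3y read 3.60 to 4.58 with F and 80.1 to 130 with M, so that the letter matched the sex of the animals. Members, lists, tests and alternatives were chosen with earlier results of these data known. Named were all 10 members; of each list of amino acid handling, up to 6 genes past the threshold with the smallest p, or the 2 with the smallest p where fewer than 2 passed (Trib3 and the member Slc3a2 in the amino acid response); the check genes; and the 5 most alike genes. Slc16a10, Slc6a14, Slc9a3, Atp1b1, Chac1, Asns, Apoa4, Fabp1, Elf3, Cldn7, Mrc1, Adgre1, Lyz1 and Pla2g2a were added after their values were seen. Alternatives changed the pseudocount, the filter, the probe set rule, the covariates, the arrays and the number range. Promoter windows and gene names came from RefSeq tables (GRCm38.p6).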

Additional observations from a re-analysis of the deposited data

Results flagged for a closer look

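Knockout L replicate 3 stood apart for Slc7a7. Its intensity was 434, below the other 7 knockouts by a gap of 0.607 of the whole range of the 8, above Dixon's 95% critical value. It was 1 of 20 groups of arrays looked at, and chance marks about 1 in 20. The same array was the lowest knockout for the average of the 10 standardized carriers.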

How the results depend on the processing

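The 2 controls limit every comparison with control, and levels near the array medians, above all those of Slc7a8 and Slc6a18, have little signal over background. Members past the threshold in knockout versus control (4) became 2 with no filter on dim genes, with the pan-epithelial covariate and with the 2 lung-high arrays left out, and 0 to 4 when single arrays were left out. All genes past it (588) became 1366 without covariates, 1222 with the letter only, 1033 in the lower number range alone and 990 with a lung covariate, and 0 to 813 without single arrays. For knockouts H the 2 members became 4 without covariates, 6 in the lower range, and 1 at a pseudocount of 1, with no filter, with a filter at the 50th percentile, with the mean over probe sets and with the pan-epithelial covariate (0 to 2 without single arrays). The 331 genes became 878 without covariates, 653 with the letter only, 1143 in the lower range, 155 at a pseudocount of 1, 602 with the lung covariate and 99 without the lung-high arrays (0 to 433). For knockouts L the 1 member became 4 without covariates and with the letter only, 8 in the lower range, 0 at the 50th percentile, and 2 with the lung covariate and without the lung-high arrays (0 to 2). The 47 genes became 543 without covariates, 578 with the letter only, 173 with the number range only, 761 in the lower range, 4 at a pseudocount of 1, 5 with no filter, 3 at the 50th percentile and 296 with the lung covariate (0 to 224). In the lower range knockouts L are 1 array, assumed to vary like the other groups. H versus L called 25 genes there, 0 of them members. Signs turned for Slc36a1 and, in H versus L, for 8 members, none past the threshold there. Slc36a1 in knockout versus control gave -0.041 without covariates, -0.0404 with the letter only and -0.00387 to 0.117 without single arrays. In H versus L, Slc7a9 gave -0.0301 without covariates, -0.0229 with the letter only and -0.023 with the range only. In the lower range Slc6a19 gave 0.809, Slc3a1 0.348 and Slc1a1 0.0463. Slc15a1 gave -0.00123 with the pan-epithelial covariate and Slc36a1 -0.00939 without the lung-high arrays. Without single arrays H versus L ranged from -0.129 to 0.306 for Slc7a9, -0.619 to 0.483 for Slc6a19, -0.381 to 0.111 for Slc3a1, -0.472 to 0.114 for Slc1a1, -0.334 to 0.279 for Slc15a1, -0.00943 to 0.13 for Slc36a1, -0.0573 to 0.24 for Slc7a7 and -0.0202 to 0.284 for Slc3a2. The cause was not tested. No paired analysis was possible because the labels carry no replicate numbers.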
